A study of Mus musculus with 11 samples.

Results

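Amino acid supply genes are described here in 3T3-L1 cells, a mouse fibroblast line that can be turned into adipocytes, after 24 h with 1 of 3 thiazolidinediones. The genes were picked from knowledge of Atf4 targets, with earlier results of these data known, and include every probe set annotated to Asns, Psat1, Phgdh, Shmt2, Mthfd2, Slc7a11, Slc3a2, Slc7a5, Aars or Wars. These 10 genes, of 8251 with a probe set of their own, have 14 of the 12488 probe sets on the arrays, and all 14 passed the filter on dim signals (above 73.7 on at least 2 arrays). Total RNA from 11 samples was hybridised to one-colour arrays. Troglitazone at 20 µM was given to 3 samples, pioglitazone at 20 µM to 2, rosiglitazone at 1 µM to 3, and the 3 vehicle samples received 0.1% DMSO. By their titles the arrays form 2 sets, of 8 and 3, and the smaller set (replicate 4 of each group) has no pioglitazone array. The labels state neither whether the cells had been differentiated nor whether the cultures were independent, so p-values measure only the spread between these samples. The cells are a single line, and the number of arrays limits the precision.

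When amino acids run short or the endoplasmic reticulum is stressed, kinases phosphorylate the initiation factor eIF2α, which slows general translation while the transcription factor Atf4 is translated more. Atf4 is known to raise genes that import amino acids, make serine, glycine and asparagine, run mitochondrial one-carbon metabolism and charge tRNAs. Thiazolidinediones are ligands of PPARγ, the nuclear receptor of adipocyte differentiation. The question taken up is whether the stress response seen with troglitazone extended to these amino acid genes.

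Atf4 binds composite elements whose core contains the letters TGATGNAA. These letters were searched on both strands of RefSeq promoter windows (GRCm38.p6, 250 bases before to 50 after the start of a transcript). Of 32851 such windows 3.97% held them. The table holds 9 windows for 8 of the 10 genes, and 3 of these windows, of Asns, Slc7a11 and Aars, held a match. Slc7a11 had 2 matches on opposite strands, starting 66 and 47 bases before the start site, and Aars had 2 on the antisense strand. The match of Asns began 23 bases before the start site. Phgdh, Psat1, Shmt2, Mthfd2 and Slc3a2 had none in these windows. Gars, a tRNA synthetase gene described further on because its call passed, had 1 match, and so had Trib3. The windows of Atf4, Ddit3 and Ppp1r15a were searched too and had none. A match describes letters only. The stretches below are shown because they carry the matches, printed in capitals; each runs 5′ to 3′ on the strand of its gene.
Asns, chr6:7693160-7693459, minus strand: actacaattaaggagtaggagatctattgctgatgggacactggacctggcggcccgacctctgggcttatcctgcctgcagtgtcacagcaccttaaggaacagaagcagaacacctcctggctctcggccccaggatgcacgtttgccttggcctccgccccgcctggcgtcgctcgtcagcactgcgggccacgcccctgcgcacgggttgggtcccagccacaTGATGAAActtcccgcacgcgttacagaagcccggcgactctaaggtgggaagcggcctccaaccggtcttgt
Slc7a11, chr3:50443623-50443709, minus strand: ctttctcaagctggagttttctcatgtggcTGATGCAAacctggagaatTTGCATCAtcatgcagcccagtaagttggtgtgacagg
Aars, chr8:111033700-111033888, plus strand: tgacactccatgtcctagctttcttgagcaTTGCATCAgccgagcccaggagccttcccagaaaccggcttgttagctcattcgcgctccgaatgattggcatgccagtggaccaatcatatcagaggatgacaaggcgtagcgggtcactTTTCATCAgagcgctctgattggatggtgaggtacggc
Gars, chr6:55037941-55038008, plus strand: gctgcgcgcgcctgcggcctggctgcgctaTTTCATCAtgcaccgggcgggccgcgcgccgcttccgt

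Signals are the deposited linear intensities. Log2 signals of the arrays correlated pairwise at 0.820 or above, and rosiglitazone replicate 2 had the lowest median correlation with the others, 0.833. As a sign of RNA integrity, the signal of the 3′ probe set for beta-actin over that of the 5′ one was 4.86 on pioglitazone replicate 2, between 1.79 and 2.27 on the other arrays of set 1 and between 3.74 and 3.90 in set 2. Of 8 adipocyte markers 6 were tested, with a median signal of 14075 over the arrays, so cells with adipocyte transcripts were present. The summed signal of 7 preadipocyte markers was 1881 to 2831 on troglitazone arrays, 1715 to 2054 on pioglitazone arrays and 1964 to 2443 on rosiglitazone arrays, against 3114 to 3214 on vehicle arrays. Dlk1 was the brightest of the 7, with means of 1026 with troglitazone, 1196 with pioglitazone, 1186 with rosiglitazone and 1780 with vehicle. The mean of Pdgfra was higher with troglitazone (420) than with vehicle (255), and 2 of 7 troglitazone estimates were above 0. The part of this summed signal in the results below was not tested, and in bulk RNA fewer cells of a type and less RNA per cell cannot be told apart.

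Regulators of the stress response were measured on the same arrays. Atf4 had signals of 11491, 11651 and 14025 with troglitazone, against 6864, 7160.4 and 8446 with vehicle. Each troglitazone array lay above each vehicle array, and Atf4 rose 1.65-fold (log2 0.73 ± 0.11, SE, limma adjusted p = 0.00267). That call held in all 11 fits that leave out an array and was lost with no set term (adjusted p = 0.193), with no intensity trend (0.308) and in set 1 alone (0.115). Ddit3, the stress transcription factor CHOP, had 6869.5, 6685 and 11342 with troglitazone, against 2295, 2582 and 3846.5 with vehicle, and rose 2.84-fold (log2 1.5046, adjusted p = 3.05e-05). Ppp1r15a (GADD34), which directs a phosphatase to eIF2α and so ends the response, also rose with troglitazone (log2 2.06, adjusted p = 0.000104). Trib3, a pseudokinase induced by Atf4, stood at 6208, 6423 and 8880.0 with troglitazone, against 5206, 3701.5 and 6268 with vehicle, where the groups overlap (log2 0.52, adjusted p = 0.116). With rosiglitazone Trib3 was at 2458, 2285 and 3306, below every vehicle array, and it fell by 0.90 on the log2 scale (adjusted p = 0.00340), a call lost in the same 3 settings (0.183, 0.205 and 0.112). Atf4, Ddit3 and Ppp1r15a had log2 values of 0.28, 0.21 and 0.83 with rosiglitazone and did not pass (limma adjusted p between 0.103 and 0.656). For Ppp1r15a every rosiglitazone array lay above every vehicle array. With pioglitazone the log2 values of Atf4, Ddit3, Ppp1r15a and Trib3 were 0.20, 0.61, 0.90 and -0.09, and 0 of these 4 passed (limma adjusted p between 0.124 and 0.933).

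**Figure D1:**
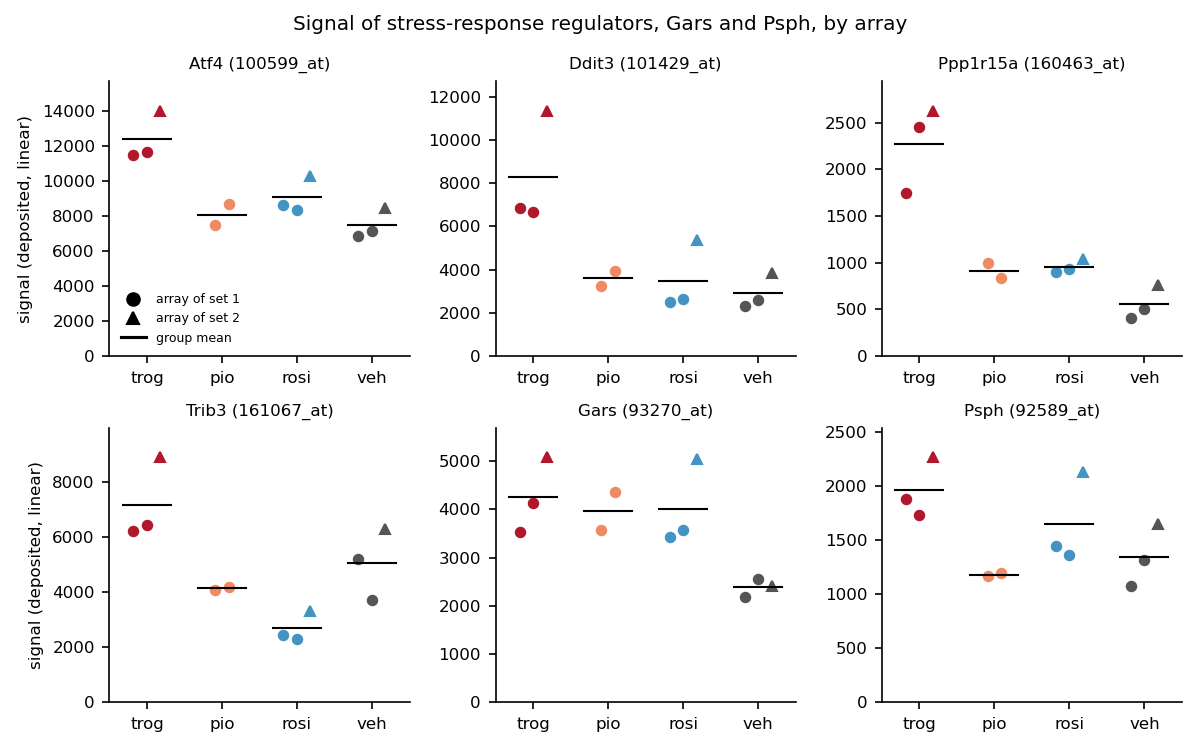
Deposited signal (linear scale) of 4 stress-response regulators, the tRNA synthetase gene Gars and the serine phosphatase gene Psph on each of the 11 arrays, by group; circles are arrays of set 1, triangles of set 2, and lines are group means. All 3 troglitazone arrays lie above all 3 vehicle arrays for Atf4, Ddit3, Ppp1r15a, Gars and Psph, and Trib3 overlaps.

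Among the amino acid supply genes no probe set passed in any comparison at an adjusted p under 0.05. With troglitazone 0 of 14 probe sets were called by limma, where 1.33% of the 11739 tested probe sets were. At an unadjusted p under 0.05 there were 4 of 14, all higher (Mthfd2, Psat1 and 2 probe sets of Wars), where 8.32% of all tested were, in either direction. On 3 probe sets, of Mthfd2, Psat1 and Asns, every troglitazone array lay above every vehicle array, and on 0 below. Over all tested probe sets these shares were 4.77% and 6.07%. Such shares were counted for troglitazone only. Separations from vehicle given for pioglitazone and rosiglitazone therefore have no share beside them, and 2 arrays separate from 3 more easily than 3 do. The median log2 fold change of the 14 probe sets was 0.21, with 9 above 0, 4 below and 1, the dim Mthfd2 probe set, at 0.00, against a median of -0.03 over all tested. Over the 14 probe sets the median half-width of the 95% interval was 0.45 on the log2 scale.

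**Figure D2:**
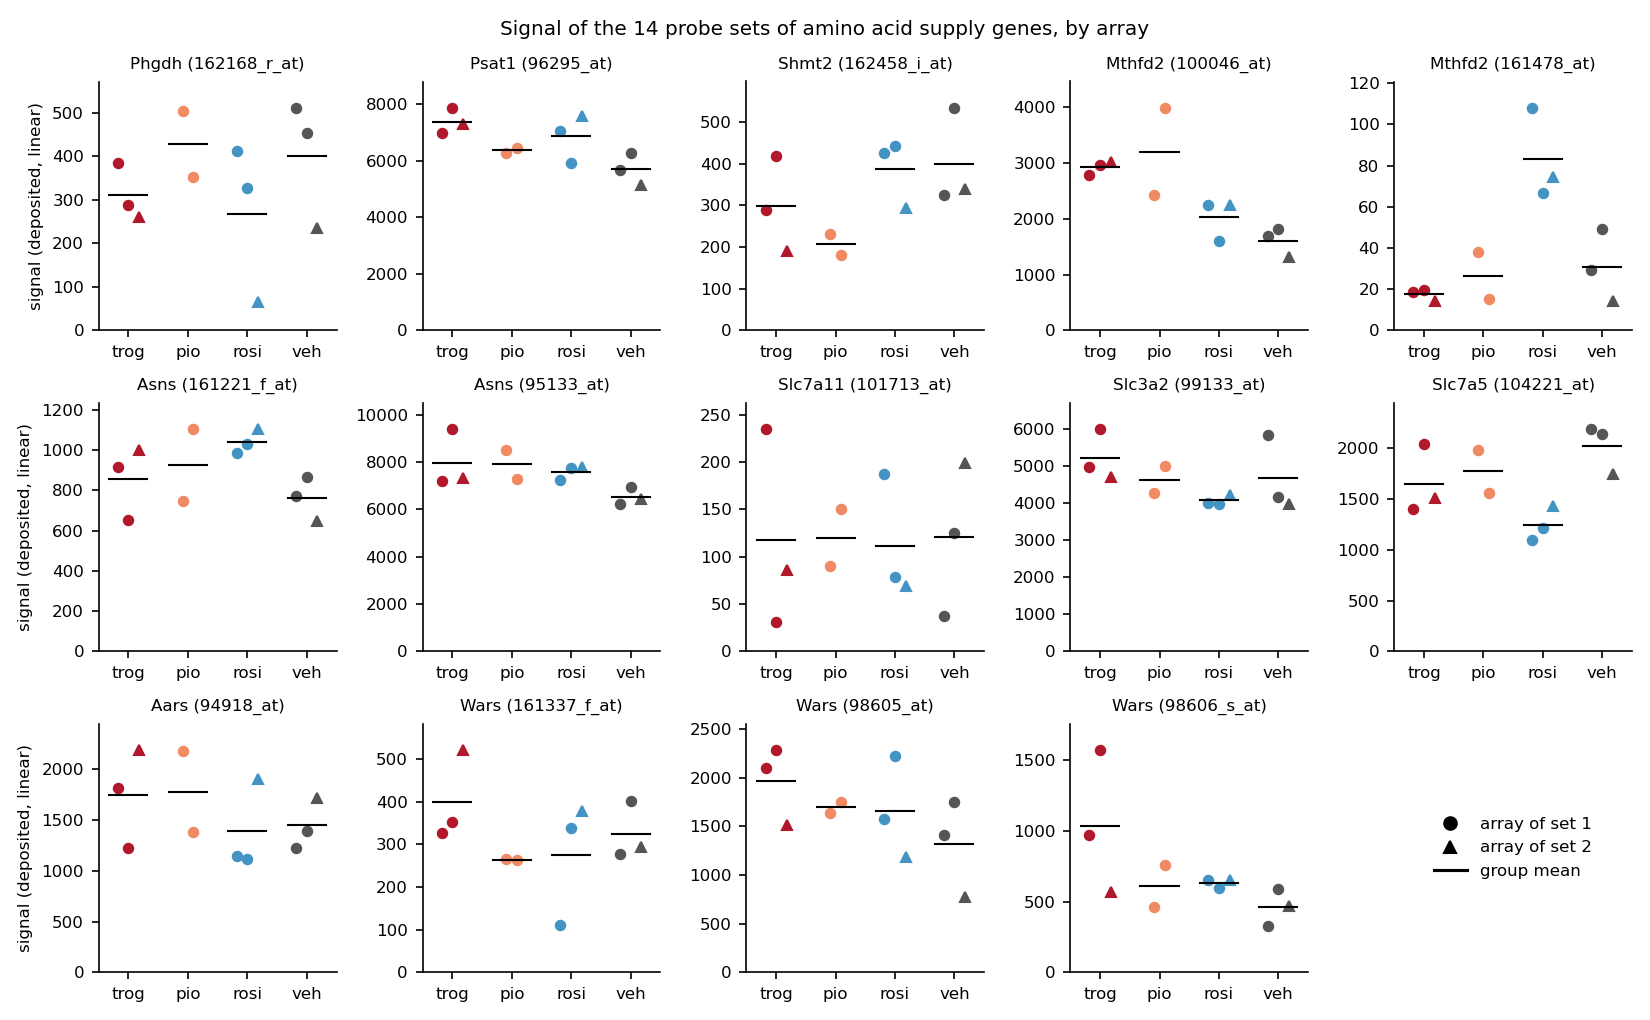
Deposited signal (linear scale, each axis from 0) of the 14 probe sets of the 10 genes on each array, by group; circles are arrays of set 1, triangles of set 2, and lines are group means. Mthfd2 (100046_at) lies between 2782 and 3019 on the troglitazone arrays and between 1318 and 1821 on the vehicle arrays, while Phgdh, Shmt2 and Slc7a11 are dim and scattered.

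Mthfd2, the mitochondrial methylenetetrahydrofolate dehydrogenase that passes one-carbon units from serine, came nearest to passing. Its bright probe set (100046_at) had signals of 2782, 2959.5 and 3019 with troglitazone, 2418 and 3977 with pioglitazone, 2252, 1598 and 2236 with rosiglitazone, and 1683, 1821 and 1318 with vehicle. The 3 troglitazone arrays lay close together and above every vehicle array, both pioglitazone arrays also lay above every vehicle array, and the rosiglitazone arrays overlapped the vehicle range. The estimate for troglitazone was 1.83-fold (log2 0.87 ± 0.21, SE, 95% interval 0.43 to 1.32, limma adjusted p = 0.0590). For pioglitazone it was 1.93-fold (log2 0.95 ± 0.24, interval 0.44 to 1.47, adjusted p = 0.0962) and for rosiglitazone, at its lower dose, 1.26-fold (log2 0.33 ± 0.21, interval -0.11 to 0.78, adjusted p = 0.631). Within set 1 troglitazone stood 1.64-fold above vehicle and within set 2, with 1 array each, 2.29-fold; the difference between the sets did not pass (limma adjusted p = 1). Within set 1 pioglitazone stood 1.77-fold above vehicle.

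The Mthfd2 value with troglitazone passed in 6 of 23 alternatives and failed in the other 17. It passed without pioglitazone replicate 1 (adjusted p = 0.0262), without pioglitazone replicate 2 (0.0307), without rosiglitazone replicate 2 (0.0363), in a limma fit of only the troglitazone and vehicle arrays (0.00853) with median centring (0.0475) and without both rosiglitazone replicate 2 and pioglitazone replicate 2 (0.0105). It had an adjusted p of 0.176 when the set term was dropped, 0.214 unfiltered, 0.432 without the intensity trend and 0.530 from set 1 only, and of 0.340 without vehicle replicate 4 and 0.314 without troglitazone replicate 4. The pioglitazone value was smaller on replicate 1 than on replicate 2, the array with the high actin ratio, and any part of RNA integrity in this was not tested. Without that array the log2 estimate was 0.59 (adjusted p = 0.404, from 1 pioglitazone array), and without replicate 1 it was 1.31 (adjusted p = 0.0446). A second Mthfd2 probe set (161478_at) was at or under 73.7 on 9 of 11 arrays and carries no information on the change.

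Serine is made from a glycolytic intermediate by Phgdh, Psat1 and Psph in turn. Psat1, the phosphoserine aminotransferase, had signals of 6978.5, 7860.3 and 7316 with troglitazone, against 5682, 6275 and 5143 with vehicle. All 3 troglitazone arrays lay above all vehicle arrays, yet the estimate of 1.30-fold did not pass (log2 0.38 ± 0.13, interval 0.09 to 0.66, limma adjusted p = 0.336). By mean signal the groups ran troglitazone (7385 ± 444.9, SD, n = 3), rosiglitazone (6859 ± 846.8, n = 3), pioglitazone (6380.4 ± 124.6, n = 2) and vehicle (5700.2 ± 566.0, n = 3). Troglitazone and rosiglitazone arrays overlapped, as did rosiglitazone and pioglitazone arrays, and the lower pioglitazone array (6292) lay just above the highest vehicle array (6275). Psph, the phosphatase of the last step and not among the 10 genes, was at 1877.5, 1731 and 2262 with troglitazone, against 1078, 1318 and 1644 with vehicle (log2 0.55, adjusted p = 0.208).

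Phgdh, the dehydrogenase of the first step, was read by 1 dim probe set, 162168_r_at. Its signals were 385.4, 287.1 and 260.9 with troglitazone, against 510.5, 454.5 and 235.8 with vehicle. The groups overlap, and the log2 estimate of -0.31 had an interval from -1.33 to 0.71 (adjusted p = 0.956). Shmt2, which moves the one-carbon unit of serine onto folate in mitochondria, had 288.0, 419.2 and 190.2 with troglitazone, against 326.3, 533.7 and 340.2 with vehicle (log2 -0.46, interval -1.36 to 0.45, adjusted p = 0.886). With pioglitazone it had 232.6 and 180.2, below every vehicle array (log2 -1.12, interval -2.17 to -0.08, adjusted p = 0.458), and with rosiglitazone 427.0, 442.2 and 293.6 (log2 -0.03). The names of both probe sets end in r or i, which in this array family mark probe sets selected under relaxed design rules.

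Asns, asparagine synthetase, is the classical Atf4 target whose promoter is printed above. Its bright probe set (95133_at) had 7219, 9393 and 7338 with troglitazone, 8527.5 and 7307 with pioglitazone, 7259, 7736 and 7815 with rosiglitazone, and 6224, 6960.4 and 6424.5 with vehicle. Every array of every drug lay above every vehicle array, by a small margin. Over all tested probe sets the share so separated was counted for troglitazone only (4.77%). The estimates were 1.21-fold for troglitazone (log2 0.28 ± 0.13, interval -0.01 to 0.57, limma adjusted p = 0.629), 1.20-fold for pioglitazone (log2 0.26, interval -0.07 to 0.59, adjusted p = 0.648) and 1.16-fold for rosiglitazone (log2 0.22, interval -0.07 to 0.51, adjusted p = 0.621). The upper end of the troglitazone interval, 1.48-fold, bounds a rise of Asns on this probe set. The dimmer one (161221_f_at) had 914.8, 653.0 and 1002 with troglitazone, against 772.2, 866.9 and 646.1 with vehicle, and overlapped (log2 0.16, adjusted p = 0.958).

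Outside the 10 genes, the 5 genes whose log2 signal followed that of Asns most closely were Zfp94, Fscn1, Sdhd, Cmpk1 and Sgta. Pearson's r over the 11 arrays, after each set's mean was subtracted, was between 0.881 and 0.919, the highest of 7952 genes compared. Arrays share treatments and preparation, so these values only describe likeness.

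The transporters bring in cystine and large neutral amino acids. Slc3a2, the heavy chain shared by Slc7a11 and Slc7a5, had 4964, 5991 and 4700.5 with troglitazone, against 5842, 4166.5 and 3987 with vehicle. The groups overlap (log2 0.18 ± 0.16, interval -0.16 to 0.51, limma adjusted p = 0.882), and a rise above 1.42-fold lies outside the interval. Slc7a5, the light chain LAT1 for leucine and other large neutral amino acids, had 1400.5, 2038 and 1509.6 with troglitazone, 1978 and 1559.8 with pioglitazone, 1099, 1212 and 1426.5 with rosiglitazone, and 2183, 2131 and 1744 with vehicle. Each rosiglitazone array lay below each vehicle array, at 1.62-fold lower by the estimate, which did not pass (log2 -0.70 ± 0.20, interval -1.13 to -0.27, adjusted p = 0.135). The Slc7a5 estimate for troglitazone was -0.30 (interval -0.73 to 0.12, adjusted p = 0.789), so its direction was opposite to that of Atf4 without passing. Slc7a11, the cystine antiporter xCT, was dim, at 234.6, 30.9 and 86.0 with troglitazone, against 37.2, 125.2 and 198.9 with vehicle. It lay at or under 73.7 on 3 arrays. Its interval for troglitazone (-1.31 to 1.10) takes in a fall of up to 2.47-fold and a rise of up to 2.15-fold.

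The tRNA synthetases charge tRNAs with their amino acids. Aars, for alanine, had 1818, 1225 and 2185 with troglitazone, against 1227, 1394 and 1715 with vehicle (log2 0.24, interval -0.21 to 0.70, limma adjusted p = 0.878). Its arrays were mixed between the groups. Wars, for tryptophan, had 3 probe sets. On 98605_at it had 2098, 2283 and 1513 with troglitazone, against 1416.5, 1754 and 778.7 with vehicle (1.55-fold, log2 0.64 ± 0.19, interval 0.23 to 1.04, adjusted p = 0.187). On 98606_s_at it had 972.2, 1567.5 and 567.3 with troglitazone, against 329.9, 588.1 and 467.0 with vehicle (2.12-fold, log2 1.08 ± 0.35, interval 0.33 to 1.84, adjusted p = 0.254).

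Troglitazone replicate 4 lay inside the vehicle range on both of these Wars probe sets, although on 98605_at it was 1.94-fold above the vehicle array of its own set. On 98606_s_at troglitazone stood 2.80-fold above vehicle in set 1 and 1.21-fold in set 2, a difference between the sets that did not pass (limma adjusted p = 1). The third probe set, 161337_f_at, had 326.1, 353.2 and 520.2 with troglitazone, against 276.3, 400.7 and 293.6 with vehicle (log2 0.29, adjusted p = 0.959). Thus all 3 Wars probe sets had estimates above 0 and 0 passed.

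**Figure D3:**
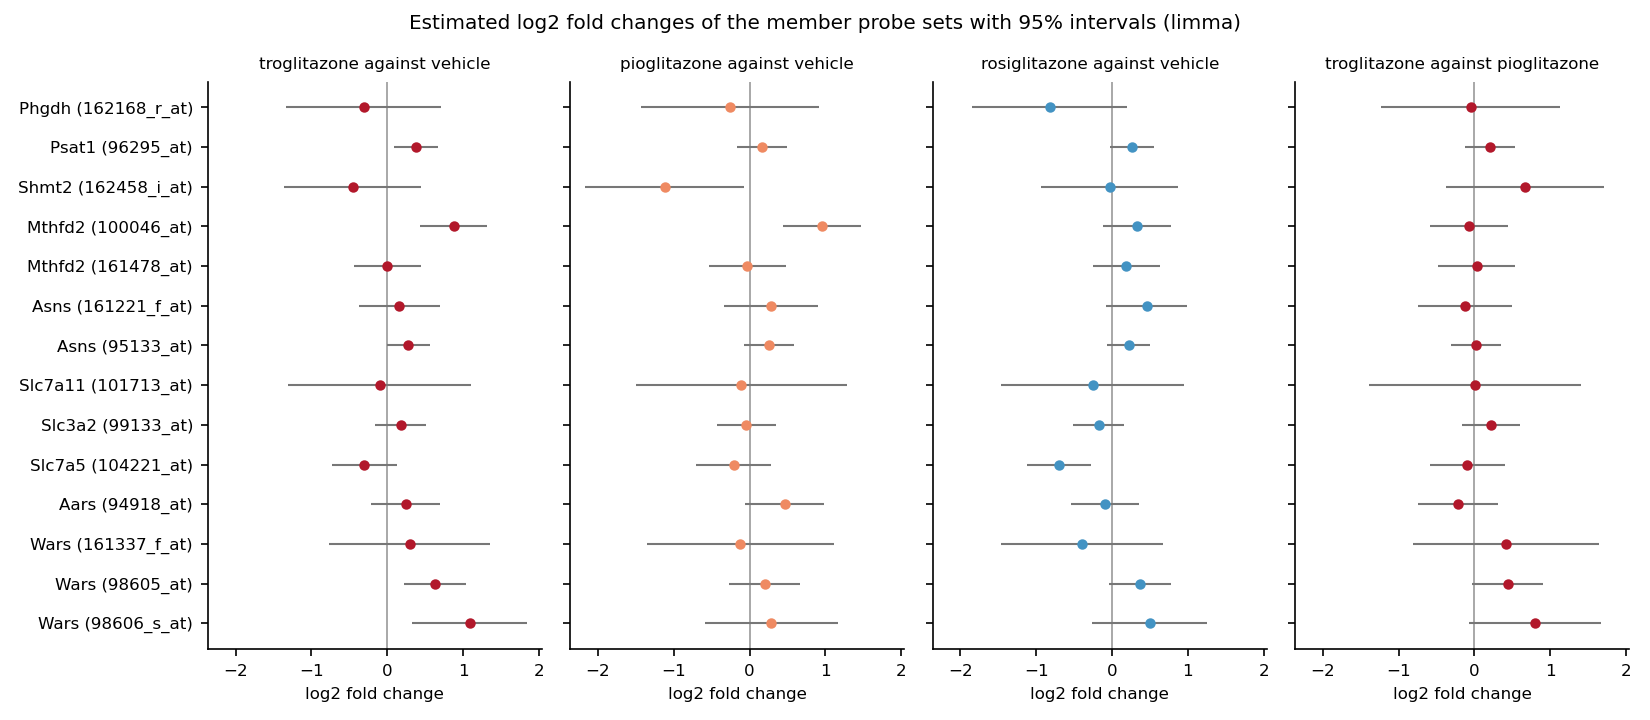
Log2 fold change (horizontal axis) of the 14 probe sets in 4 comparisons, from the limma model with set as a term; points are estimates and bars are 95% intervals. Mthfd2 (100046_at), Psat1 and the 2 Wars probe sets 98605_at and 98606_s_at have intervals above 0 with troglitazone, and 0 of the 14 passed after adjustment in any panel.

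With pioglitazone 0 of 14 probe sets were called, where 0.903% of all tested were. At an unadjusted p under 0.05 there were 2, Mthfd2 higher and Shmt2 lower, where 9.85% of all tested were. The median log2 fold change was 0.07, against -0.08 over all tested. With rosiglitazone 0 of 14 were called, where 1.35% of all tested were. Slc7a5, lower, was the 1 probe set with an unadjusted p under 0.05, where 10.5% of all tested had one. The median log2 fold change was 0.08, against 0.00 over all tested. Aars had a log2 estimate of 0.46 with pioglitazone (interval -0.06 to 0.99, limma adjusted p = 0.586), and its pioglitazone arrays stood far apart at 2172 and 1379.6. With rosiglitazone Phgdh had a log2 estimate of -0.82 (interval -1.84 to 0.20), drawn by 1 array at 64.5 beside others at 412.7 and 327.4.

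Troglitazone and pioglitazone were given at the same dose, 20 µM, for the same time, so they can be set against each other. Both share the thiazolidinedione head; troglitazone has a chroman group related to vitamin E at its other end, and pioglitazone has an ethylpyridine group. Of the 14 probe sets 0 were called, where 0.0341% of all tested were, and 0 had an unadjusted p under 0.05, where 6.35% of all tested had. For Mthfd2 (100046_at) the log2 difference, troglitazone minus pioglitazone, was -0.08 (interval -0.59 to 0.44, limma adjusted p = 0.995). For Asns (95133_at) it was 0.02 (interval -0.31 to 0.35). The Wars probe sets 98605_at and 98606_s_at had the smallest p-values, with differences of 0.44 (interval -0.03 to 0.91, adjusted p = 0.834) and 0.80 (interval -0.08 to 1.67, adjusted p = 0.843). These intervals do not show that the compounds act alike. For the regulators the differences were 0.52 for Atf4 (interval 0.24 to 0.80), 0.90 for Ddit3 and 1.16 for Ppp1r15a, which did not pass either (adjusted p = 0.312, 0.146 and 0.257). Rosiglitazone was given at 1 µM, so its values stand beside the others without a test.

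Other genes of the same pathways were taken from lists of textbook members. Of 18 other cytosolic tRNA synthetases 17 were tested, and 1 rose with troglitazone and 0 fell, where 1.33% of all tested were called. With troglitazone 14 of 17 estimates were above 0, where 45.6% of all tested were, with a median of 0.33 against -0.03 over all tested. With pioglitazone 10 of 17 were above 0 (median 0.15) and with rosiglitazone 10 of 17 (median 0.11), where 43.2% and 49.8% of all tested were. For troglitazone against pioglitazone the median was 0.05, against 0.04 over all tested. The one that passed with troglitazone was Gars, for glycine. It had 3527, 4129 and 5073 with troglitazone, 3568 and 4366 with pioglitazone, 3416, 3568.5 and 5034 with rosiglitazone, and 2191, 2549 and 2408 with vehicle. Every drug array lay above every vehicle array, and Gars rose 1.76-fold with troglitazone (log2 0.82 ± 0.15, limma adjusted p = 0.0122), 1.79-fold with pioglitazone (0.84 ± 0.18, adjusted p = 0.0387) and 1.66-fold with rosiglitazone (0.73 ± 0.15, adjusted p = 0.0273). The 3 comparisons share the vehicle arrays. Between troglitazone and pioglitazone its log2 difference was -0.02 (interval -0.40 to 0.36). The troglitazone call was lost without troglitazone replicate 2 (adjusted p = 0.0853) or 4 (0.128), or vehicle replicate 1 (0.0618) or 4 (0.129), and also with no filter (0.0518), no set term (0.156), no intensity trend (0.315) and in set 1 alone (0.280). Of 23 alternatives the troglitazone call held in 15, the pioglitazone call in 6 (adjusted p up to 0.487) and the rosiglitazone call in 11 (up to 0.351). Sars, for serine, had 856.5, 865.8 and 754.6 with troglitazone, against 400.4, 229.0 and 558.8 with vehicle, with no overlap (log2 1.15, interval 0.45 to 1.85, adjusted p = 0.150).

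In the other lists of amino acid genes 0 passed with troglitazone by limma; at an unadjusted p under 0.05 there were 0 of 14 transporters, 1 of 6 serine, glycine and folate enzymes, 2 of 9 synthesis enzymes and 2 of 17 genes of branched-chain breakdown, where 8.32% of all tested were. Of 24 other amino acid transporters 14 were tested (median log2 0.10); the smallest p-values were those of Slc7a3, a cationic amino acid transporter (-1.27, limma adjusted p = 0.677), and Slc6a9, a glycine transporter (0.48, adjusted p = 0.724). Of 19 other serine, glycine and folate enzymes 6 were tested (median -0.07), among them Psph and the sarcosine dehydrogenase Sardh (-0.90, adjusted p = 0.802). Of 19 other amino acid synthesis enzymes 9 were tested (median -0.23), with Glud1, glutamate dehydrogenase, at -0.66 (adjusted p = 0.497) and Glul, glutamine synthetase, at 1.10 (adjusted p = 0.557). Of 23 genes of branched-chain amino acid breakdown, a pathway active in adipocytes, 17 were tested, and the median was -0.11. Ivd, isovaleryl-CoA dehydrogenase, had 1526, 1108 and 1549.7 with troglitazone, against 2490.0, 2057 and 2074 with vehicle, without overlap (log2 -0.67, interval -1.07 to -0.28, adjusted p = 0.123), and Echs1, an enoyl-CoA hydratase, stood at -0.36 (adjusted p = 0.308).

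Of 22 regulators of the integrated stress response 17 were tested. With troglitazone 3 rose (Atf4, Ddit3 and Ppp1r15a) and 0 fell, where 1.33% of all tested were called. By limma 7 of 17 had an unadjusted p under 0.05 in either direction, where 8.32% of all tested had. Of the 17 estimates 9 were above 0, and the median was 0.11. Slc7a11 is also a target of the antioxidant factor NRF2, so NRF2 targets are given beside it. Of 17 listed, 14 were tested. With troglitazone 0 rose and 1 fell, where 1.33% of all tested were called. By limma 6 of 14 had an unadjusted p under 0.05 in either direction, where 8.32% of all tested had. The list was mixed, with 6 of 14 estimates above 0 and a median of -0.15. The one that fell was Gstm1, a glutathione transferase (log2 -0.77, limma adjusted p = 0.00674), while Hmox1, heme oxygenase, stood at 1.01 (adjusted p = 0.0934). Gstm1 also fell with rosiglitazone (log2 -0.99, limma adjusted p = 0.00104) and stood at -0.57 with pioglitazone (adjusted p = 0.128). The troglitazone call of Gstm1 was lost without troglitazone replicate 2 (adjusted p = 0.0515) or 4 (0.0873), or vehicle replicate 4 (0.0690), and with no filter (0.0508), no set term (0.199), no intensity trend (0.353) and in set 1 alone (0.239). The rosiglitazone call of Gstm1 held in 20 of 23 alternatives.

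**Figure D4:**
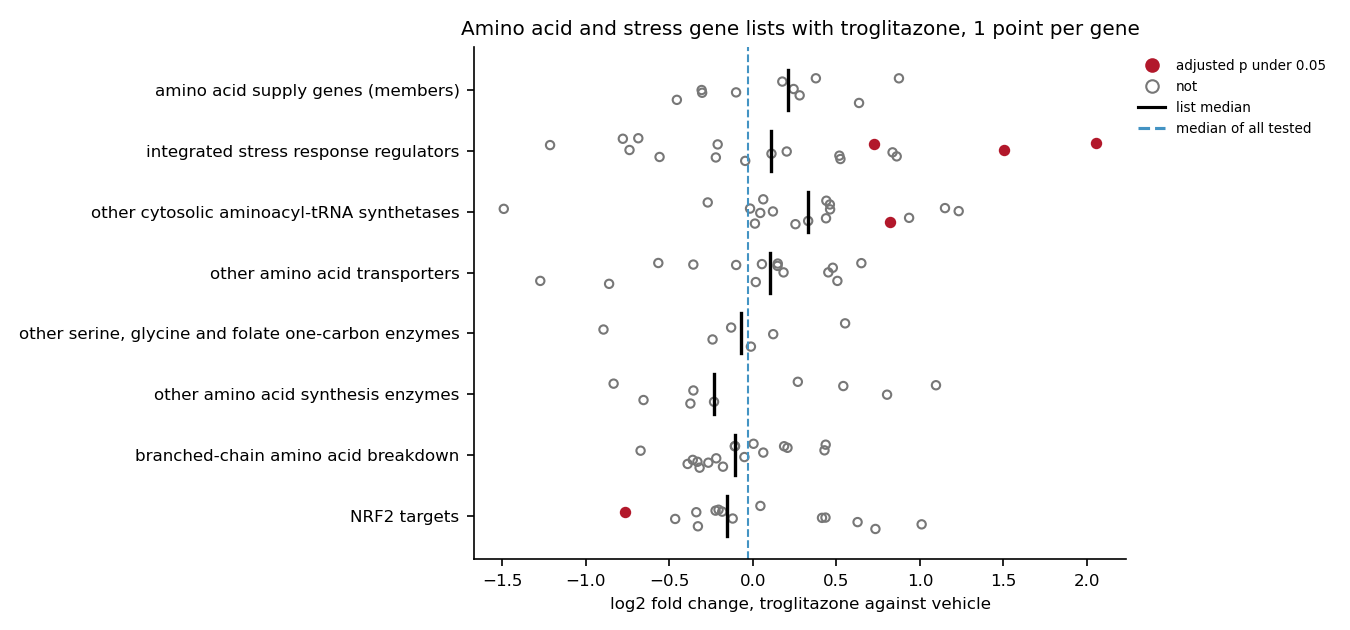
Log2 fold change of troglitazone against vehicle for each tested gene (1 point, its brightest probe set) of the 10 amino acid supply genes and 7 lists of related genes; filled points passed at an adjusted p under 0.05, black bars are list medians, and the dashed line is the median of all tested probe sets, -0.03. Filled points are Atf4, Ddit3, Ppp1r15a, Gars and, on the lower side, Gstm1; the 10 supply genes have a median of 0.21 and no filled point.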

How the data were processed

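The deposited values are signal intensities of one-colour arrays, 1 linear value per probe set, between 0.4 and 224475. They appear to have been scaled before they were deposited, since the mean signal of each array, trimmed by 2% at both ends, was 499.7 to 499.9. The array software is not given in the sources used here. Signals under 73.7 (the 25th percentile of all values) were raised to it, log2 was taken, 66 control probe sets were left out, and the 11739 probe sets above that floor on at least 2 arrays were tested. Genes come from the platform annotation; sequences come from RefSeq (GRCm38.p6), and no protein sequence was used here.

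The model was limma's (version 3.58.1, under R 4.3.3), with a term for each group and for the set, an intensity trend and 6 residual degrees of freedom. P-values are two-sided and Benjamini-Hochberg adjusted over all tested probe sets of a contrast; "rose", "fell", "called" and "passed" mean an adjusted p under 0.05. Errors of log2 values are standard errors, and intervals have 95% confidence. Genes in lists are represented by their brightest tested probe set. All probe sets of the 10 genes are named, as are, per list, up to 4 genes that passed with troglitazone (or the 2 with the smallest p where fewer than 2 passed), and 4 regulators. The genes and lists were chosen with earlier results of these data known. Lists of adipocyte, preadipocyte, macrophage, smooth muscle, endothelial and epithelial markers were also measured. Alternatives were other normalisations, floors, filters and models, and leaving out each array.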

Additional observations from a re-analysis of the deposited data

How the results depend on the processing

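Over 23 alternatives per comparison, no probe set of the 10 genes passed for rosiglitazone against vehicle or for troglitazone against pioglitazone (lowest and highest count 0), nor in 6 alternatives for either difference between the sets. For troglitazone the count of 14 was 1 (Mthfd2) with median centring, in a fit of only the compared groups and, chosen after seeing the data, without both rosiglitazone replicate 2 and pioglitazone replicate 2; leaving out single arrays it ran from 0 to 1. For pioglitazone it was 1 (Mthfd2) with median centring, and 0 to 1 over left-out arrays. A fit that leaves 1 pioglitazone array assumes that it varies like the other groups. Slc7a11 lay at or under the floor on 3 arrays and the dim Mthfd2 probe set on 9. Estimates that did not pass changed sign in 9 of 314 values for troglitazone, 23 of 314 for pioglitazone, 8 of 314 for rosiglitazone and 29 of 314 for troglitazone against pioglitazone; the cause was not tested. For pioglitazone the median log2 value of all probe sets was 0.06 with median centring, against -0.08 as reported.

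With replicate numbers as a replicate block the count was 0 in each of the 4 comparisons. The numbers were not taken to pair the samples. Deviations from group means of troglitazone and vehicle arrays with the same number correlated at 0.0628, 0.0776 and 0.289. The last is for replicate 4, so it also holds the difference between the sets. With deviations taken within sets, the correlation was -0.0147 for troglitazone and vehicle and 0.00441 for rosiglitazone and vehicle. Of the 6 troglitazone and vehicle arrays 3 correlated best with their own number (5 of 6 for rosiglitazone and vehicle). These counts do not settle whether the numbers pair the samples.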

Other observations

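Markers of other cell types were measured on the same arrays. Over all tested probe sets 1.33% were called with troglitazone by limma and 8.32% had an unadjusted p under 0.05. Of 5 tested macrophage markers 1, Cd14, passed with troglitazone, lower (log2 -1.49, limma adjusted p = 0.0246), a call lost without troglitazone replicate 1 (adjusted p = 0.140) or 2 (0.107), or vehicle replicate 1 (0.173), 2 (0.0866) or 4 (0.0606), and with no filter (0.103), no set term (0.0724), no intensity trend (0.193) and in set 1 alone (0.0655); Ptprc stood at -0.29. Of the 5 macrophage marker estimates 2 were above 0. The summed signal of these 5 markers was 1427 to 2552 with troglitazone and 1972 to 3535 with vehicle. Of 4 smooth muscle, 4 endothelial and 4 epithelial markers tested 0 passed with troglitazone by limma, and at an unadjusted p under 0.05 there were 1, 0 and 1; the smallest p-values were those of Acta2 (log2 -2.14, adjusted p = 0.0673) and Cnn1 (-0.55), Pecam1 (-0.70) and Tek (0.08), and Krt19 (-1.03) and Krt8 (0.47). Among 7 tested preadipocyte markers 0 passed and 1 had an unadjusted p under 0.05, with Dlk1 at -0.80 (limma adjusted p = 0.0738) and Cd34 at -0.78. Of these 7 estimates 2 were above 0. Of the 6 tested adipocyte markers Cidec rose (1.07, adjusted p = 0.000219), a call lost with no set term (0.0570) and no intensity trend (0.132), and Adipoq stood at -0.48 (adjusted p = 0.117). The median of the 6 estimates was -0.15, with 2 above 0. Cidec also rose with pioglitazone (log2 1.43, limma adjusted p = 0.000138) and with rosiglitazone (log2 1.16, limma adjusted p = 0.000234).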
